A study of Mus musculus with 16 samples.

Results

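The comparison set mice carrying a conditional deletion of Atg7 against mice with the intact gene, both without the mutant SOD1 transgene, in the lumbar spinal cord at 150 days of age. Its members were the 4 libraries titled Atg7 cKO (conditional knockout, here cKO) and the 4 titled Atg7 cWT (the wild-type counterpart, here cWT) among the 16 libraries of the series, and all expressed genes were compared between them. The 8 other libraries carried the SOD1G93A transgene, a mutant human SOD1 that models amyotrophic lateral sclerosis, in cKO (cKO_SOD1) and cWT (cWT_SOD1) mice, 4 libraries each. They entered the comparison of the cKO effect across transgene status. RNA was poly-A selected from whole lumbar cord, and each library is given as a biological replicate. The series title places the inhibition of autophagy in motor neurons. The sources used here name no Cre driver, floxed exon or strain, and do not say whether cWT animals carried Cre.

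Atg7 is the E1-like enzyme that activates Atg12 and the LC3 and GABARAP proteins, which are then attached to their targets as the autophagosome membrane grows. Autophagosomes carry proteins, organelles and cargo bound by receptors such as p62 (Sqstm1) to the lysosome, and neurons rely on this route because they do not divide. Spinal motor neurons are large cholinergic cells that are few among the glia and interneurons of the cord, with long axons filled with neurofilaments. The integrated stress response is the programme in which phosphorylation of eIF2alpha slows translation and raises the transcription factor Atf4, which induces genes of amino acid transport, amino acid synthesis and tRNA charging. Fgf21, a secreted hormone of the fibroblast growth factor family, and Chac1, an enzyme that degrades glutathione, are known targets of Atf4 in mouse liver and in cultured cells.

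Library totals lay between 17669015 and 20616170 counts, and 14938 of 23284 symbols passed the filter on low counts. Xist and Y-linked counts gave 2 males and 2 females in each group. The first principal component, with 32.9% of the variance, separated the sexes and not the genotypes. On the second, with 14.4%, cKO libraries lay at -8.14, -2.51, -14.5 and -4.07, and cWT libraries at 11.5, 4.6, 15.7 and -2.66. There only cWT replicate 4 lay among the cKO libraries. The lumbar markers Hoxc10, Hoxd10 and Hoxa10 and markers of motor neurons, oligodendrocytes, astrocytes and microglia were detected in all 8 libraries. Of markers of tissue that a dissection can carry, the sensory ganglion gene Prdm12 stayed at or below 0.109 CPM (counts scaled to the library size), and the choroid plexus gene Ttr at or below 0.274 CPM. The hemoglobin genes Hba-a1 and Hbb-b1 are listed at 0 in every column of the count table, which does not show that blood was absent, since the deposited FPKM table holds hemoglobin. Hbb-b2 was at 56.0, 53.5, 72.9 and 59.9 FPKM (reads scaled to gene length and library size) in cKO cords, against 104, 80.0, 187 and 67.2 FPKM in cWT cords, which overlap.

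The promoters of both genes that rose are shown because each holds a match to the composite C/EBP-ATF element. Atf4 is known to act through this element, but its part in the rise was not tested. The windows are the 250 bases upstream of the RefSeq transcription start in GRCm38.p6, read 5′ to 3′ on the strand of the gene, and the capitals mark the element. The Fgf21 window is chr7:45615491-45615740 on the minus strand, with the element starting 139 bases upstream. The Chac1 window is chr2:119350992-119351241 on the plus strand, with the element starting 193 bases upstream.
Fgf21: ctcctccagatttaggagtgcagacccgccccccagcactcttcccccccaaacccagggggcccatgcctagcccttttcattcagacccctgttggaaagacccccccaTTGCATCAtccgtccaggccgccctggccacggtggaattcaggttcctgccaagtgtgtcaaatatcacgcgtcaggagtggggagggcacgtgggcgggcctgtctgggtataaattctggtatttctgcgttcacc
Chac1: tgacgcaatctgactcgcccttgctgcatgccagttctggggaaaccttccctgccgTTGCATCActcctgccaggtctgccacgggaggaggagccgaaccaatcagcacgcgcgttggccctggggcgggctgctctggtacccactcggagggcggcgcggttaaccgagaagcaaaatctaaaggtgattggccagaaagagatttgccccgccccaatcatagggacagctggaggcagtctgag
Both windows carry the same 8 letters, TTGCATCA, which match the searched motif TGATGNAA on the opposite strand (TTNCATCA). The motif, searched on both strands, was present in 1134 of 32851 mouse promoter windows of this length, or 3.45%. Of the integrated stress response genes listed here, 26 symbols had windows, and 9 of them held it (Asns, Atf3, Chac1, Fgf21, Gars, Nupr1, Pycr1, Slc7a11 and Vldlr), in 9 of their 30 windows. The list was drawn from known targets of this pathway, so the share describes the list and is not a test. Of the genes next in order of p, Iars, Atf4, Slc7a1 and Sqstm1, all higher in cKO cords, held no match in their windows.

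At an adjusted p under 0.05 (edgeR's quasi-likelihood test with Benjamini-Hochberg adjustment over all genes tested), 9 of 14938 genes, or 0.0602%, changed in cKO cords. Fgf21 and Chac1 rose, which is 0.0134% of all genes, and Mmp9, Chodl, Mrvi1, Lgals1, Mest, Pdgfd and Nefh fell, which is 0.0469%. In all 9 the cKO and cWT libraries did not overlap, against 3.51% of all genes tested. The 9 genes were called from these same libraries, so their separation follows largely from the call and is no further support. Fgf21 alone among the 9 changed by more than 2-fold. An unadjusted p under 0.05 was reached by 5.51% of all genes, 2.32% of them higher and 3.19% lower in cKO cords. Over all genes the log2 fold change had a median of 0.0008. When all 16 libraries shared the estimate of the spread, 4 of 15426 genes were called (0.0259%), with Fgf21 higher (0.00648%) and Mmp9, Chodl and Mrvi1 lower (0.0194%). DESeq2 called 34 genes in the 8 libraries, the 9 above among them.

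**Figure D1:**
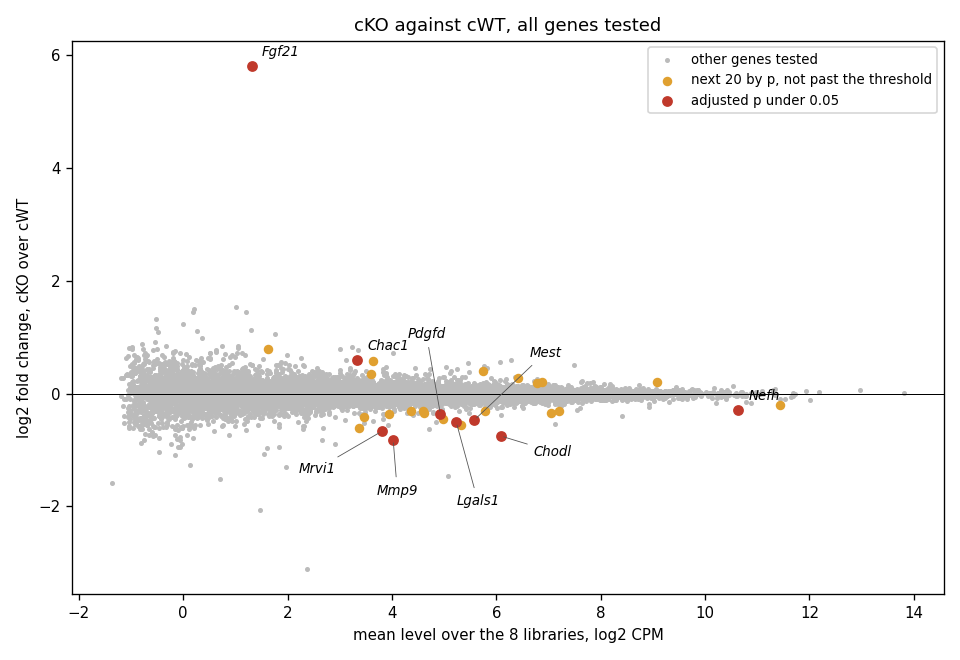
Log2 fold change of cKO over cWT cords (vertical) against the mean level in the 8 libraries (horizontal, log2 CPM) for the 14938 genes tested. Red points are the 9 genes with an adjusted p under 0.05 and yellow points the next 20 by p. Fgf21 stands at 5.81, and the 8 other red points lie between -0.81 and 0.60.

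Atg7 itself (chromosome 6, 114593119 to 114810632, mm9) had 27.8, 28.6, 28.0 and 26.0 CPM in cKO cords, against 34.7, 29.4, 29.5 and 30.4 CPM in cWT cords. The cKO libraries all lay below the cWT libraries, with a fitted change of -11.1% (log2 fold change -0.17, SE 0.064, unadjusted p = 0.0216, adjusted p = 0.849 by edgeR). Counts over the whole gene in whole cord cannot check the genotype labels, since a deleted exon is only part of the transcript and cells outside the deletion keep theirs.

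Fgf21 (chromosome 7, 52869260 to 52870860) was counted 113, 72, 78 and 118 times in the cKO libraries, and 2, 1, 2 and 1 times in the cWT libraries. Every cKO library was far above every cWT library, and in cWT cords the gene was barely detected. The summed counts of 381 in cKO and 6 in cWT cords gave a ratio of 60.9 after scaling for depth, with a 95% counting interval from 27.7 to 167. The fitted log2 fold change was 5.81 (SE 0.31, adjusted p = 4.36e-06 by edgeR). In length-scaled units Fgf21 averaged 6.61 ± 1.33 FPKM in cKO cords and 0.0898 ± 0.0308 FPKM in cWT cords (SD, n = 4 each). The cKO level was thus close to that of Atg7 itself per unit of length, 6.71 ± 0.230 FPKM in the same cKO cords (SD, n = 4).

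Chac1 (chromosome 2, 119176978 to 119180062) had 13.4, 12.3, 11.7 and 11.1 CPM in cKO cords, against 7.80, 8.32, 8.44 and 7.49 CPM in cWT cords. The lowest cKO library exceeded the highest cWT library, and the fitted rise was 51.6% (log2 fold change 0.60, SE 0.084, adjusted p = 0.0210 by edgeR).

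Mmp9 and Chodl are known markers of fast motor neurons, the cells that drive fast-fatigable muscle fibres. Mmp9, a secreted matrix metalloproteinase (chromosome 2, 164773751 to 164781346), had 12.2, 12.5, 10.3 and 12.1 CPM in cKO cords, against 21, 20.6, 20.1 and 21.2 CPM in cWT cords. It fell by 43.1% in cKO cords (log2 fold change -0.81, SE 0.072, adjusted p = 7.45e-04 by edgeR). The cWT libraries lay close together, and all cKO libraries lay well below them. Chodl, the membrane lectin chondrolectin (chromosome 16, 78931193 to 78951973), had 51.0, 45.4, 54.6 and 50.7 CPM in cKO cords, against 74.7, 96.1, 87.2 and 81.3 CPM in cWT cords. It fell by 40.5% in cKO cords (log2 fold change -0.75, SE 0.077, adjusted p = 0.0024 by edgeR). In whole cord, fewer cells of a type and less RNA per cell cannot be told apart.

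Nefh, the heavy neurofilament subunit (chromosome 11, 4838759 to 4848067, sharing its locus with Ap1b1), was by far the most abundant gene that changed. It had 1490, 1420, 1460 and 1370 CPM in cKO cords, against 1780, 1850, 1690 and 1680 CPM in cWT cords. It fell by 18.0% in cKO cords, a small difference that all libraries shared (log2 fold change -0.29, SE 0.039, adjusted p = 0.0200 by edgeR).

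The 4 remaining genes that fell have no shared role in the lists used here. Lgals1, the galactoside-binding lectin galectin-1 (chromosome 15, 78757155 to 78760895), had 32.0, 28.6, 31.6 and 32.1 CPM in cKO cords, against 42.3, 46.1, 40.2 and 47.5 CPM in cWT cords, and fell by 29.4% (log2 fold change -0.50, SE 0.065). Mrvi1, a substrate of cGMP-dependent kinase that binds the IP3 receptor (chromosome 7, 118011781 to 118125609, overlapping Gm16336), had 12.1, 10.1, 9.46 and 11.5 CPM in cKO cords, against 16.8, 17.9, 17.4 and 16.7 CPM in cWT cords, and fell by 37.1% (log2 fold change -0.67, SE 0.085). Both had an adjusted p of 0.0160 by edgeR. Mest, an imprinted gene expressed from the paternal allele (chromosome 6, 30683506 to 30698466, overlapping Copg2 and Mir335), had 41.8, 41.2, 39.8 and 37.3 CPM in cKO cords, against 54.7, 61.3, 55.1 and 50.6 CPM in cWT cords (log2 fold change -0.47, SE 0.063, adjusted p = 0.0200 by edgeR). Pdgfd, a ligand of the PDGF receptor beta (chromosome 9, 6168612 to 6377519, overlapping Ddi1), had 27.8, 25.7, 26.8 and 26.1 CPM in cKO cords, against 34.6, 34.3, 32.6 and 36.0 CPM in cWT cords (log2 fold change -0.37, SE 0.052, adjusted p = 0.0210 by edgeR). In these 4 genes too, every cKO library lay below every cWT library.

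**Figure D2:**
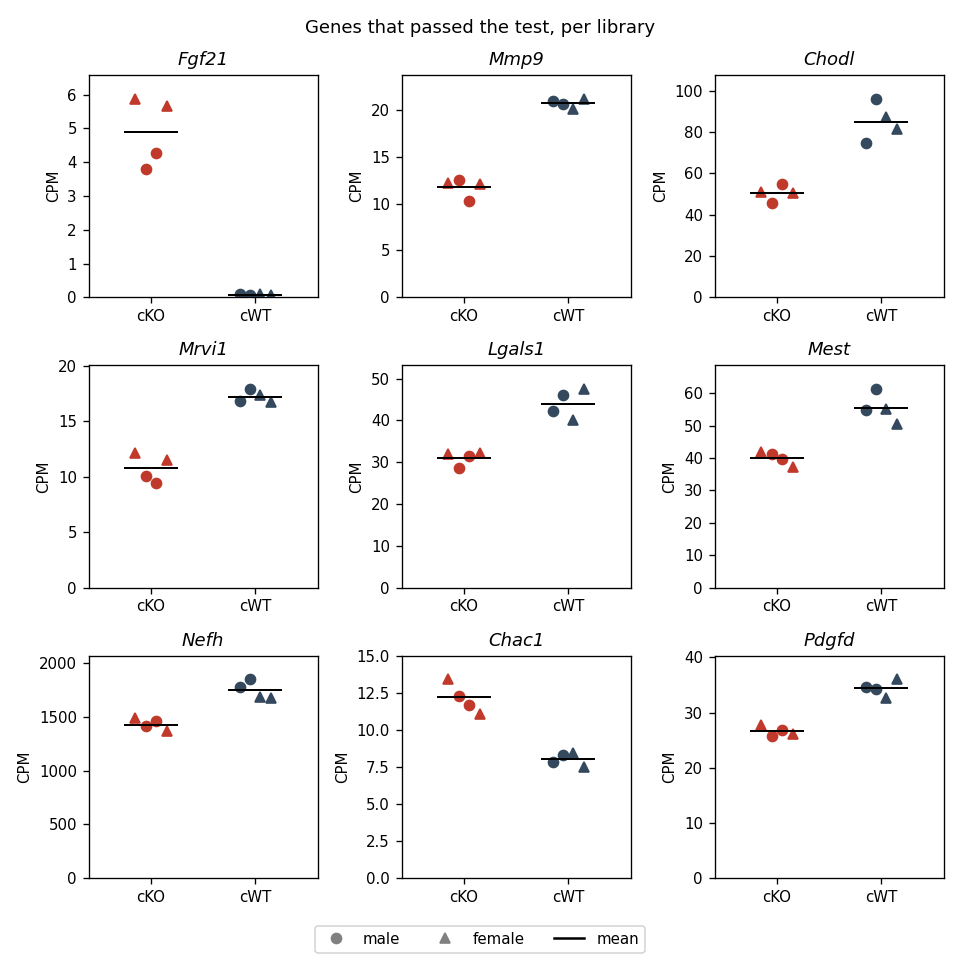
Level in CPM (vertical, linear from 0) of the 9 genes that passed the test in each of the 4 cKO (left, red) and 4 cWT (right, blue) libraries, circles for males, triangles for females and bars for group means. In every panel the groups are apart, with Fgf21 between 3.80 and 5.88 CPM in cKO cords and at or below 0.110 CPM in cWT cords.

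All 9 genes kept their direction in males alone and in females alone, which the lack of overlap between the groups largely fixed in advance. Fgf21, Mmp9 and Chodl passed the test whichever of the 8 libraries was left out, with log2 fold changes from 5.67 to 5.98, -0.84 to -0.76 and -0.81 to -0.68. The other 6 each lost the call when some library was left out. Without cKO replicate 2 or without cKO replicate 3, those 3 genes were the only ones called, and without cKO replicate 1, 5 genes were called. Over the 8 such fits the highest adjusted p was 0.0893 for Mrvi1, Lgals1 and Mest, 0.134 for Nefh, 0.141 for Chac1 and 0.166 for Pdgfd (edgeR). Each of these log2 fold changes kept its sign, which groups without overlap again largely fixed in advance.

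The motor neuron identity list held 24 tested genes, of which 2 fell (Mmp9 and Chodl), none rose and 22 did not pass the test. In 18 of the 24 the mean was lower in cKO cords, and in 6 the cKO libraries all lay below the cWT libraries, against 2.01% of all genes. An unadjusted p under 0.05 with a lower level was reached by 8 of them, against 3.19% of all genes. The 6 and the 8 include Mmp9 and Chodl. The list was chosen with earlier results of these data known, so its counts are no test. The median log2 fold change was -0.19, but -0.062 without cWT replicate 2, which had the highest level among the cWT libraries of Chodl, Isl1, Isl2, Lhx4, Mnx1, Kcnj14 and Calca. The summed level of the list was 1290 to 1380 CPM in cKO libraries and 1410 to 1580 CPM in cWT libraries.

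Members that did not pass the test included channels, secreted factors and transcription factors of motor neurons. Kcnj14, an inward-rectifier potassium channel of motor neurons, had 18.8, 21, 23.4 and 16.8 CPM in cKO cords, against 24.1, 29.7, 23.6 and 23.8 CPM in cWT cords (log2 fold change -0.34, SE 0.11, adjusted p = 0.675 by edgeR). Rspo2, a secreted enhancer of Wnt signalling, had 13.8, 12.2, 11.6 and 11.9 CPM in cKO cords, against 15.2, 14.1, 14.7 and 14.2 CPM in cWT cords. Neither gene's groups overlapped. The transcription factors that specify motor neurons were present at low levels. Lhx4 had 3.18, 2.90, 2.63 and 3.02 CPM in cKO cords, against 3.65, 4.93, 3.24 and 3.26 CPM in cWT cords. Mnx1, with a log2 fold change of -0.42 (SE 0.16), and Isl2, with -0.35 (SE 0.17), overlapped between genotypes, and Isl1 differed by -0.06 (SE 0.19). Several members differed by less than their error, among them the peripherin gene Prph (-0.053, SE 0.079), the synaptic vesicle gene Sv2a (0.0099, SE 0.030) and Esrrb (-0.03, SE 0.085), while Esrrg, a receptor linked to slow and gamma motor neurons, was at 0.063 (SE 0.035).

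Of 14 genes of cholinergic transmission none passed the test, 11 had a lower and 3 a higher mean in cKO cords, and their log2 fold changes had a median of -0.086 (-0.053 without cWT replicate 2). Slc18a3, the vesicular acetylcholine transporter, had 62.8, 57.9, 64.1 and 51.4 CPM in cKO cords, against 68.5, 90.5, 77.5 and 70.4 CPM in cWT cords (log2 fold change -0.38, SE 0.090, adjusted p = 0.390 by edgeR). Chat, the enzyme that makes acetylcholine, had 31.7, 31.4, 35.9 and 30.3 CPM in cKO cords, against 30.9, 56.7, 46.9 and 47.8 CPM in cWT cords (log2 fold change -0.49, SE 0.14, adjusted p = 0.610 by edgeR). The Slc18a3 groups did not overlap, whereas cWT replicate 1 was as low in Chat as the cKO libraries. Slc18a3 lies within the Chat locus, and reads of the 2 genes could have been assigned to either. Slc5a7, the choline transporter, had 163, 168, 188 and 169 CPM in cKO cords, against 176, 218, 180 and 171 CPM in cWT cords, which overlap. Slc10a4, a transporter of cholinergic and monoaminergic vesicles outside this list, had 25.8, 26.5, 30.3 and 24.1 CPM in cKO cords, against 35.3, 41.1, 33.7 and 35.3 CPM in cWT cords, and ranked among the genes just short of the threshold (log2 fold change -0.45, SE 0.080, adjusted p = 0.108 by edgeR).

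Among 24 genes of neuronal filaments and the axonal cytoskeleton, Nefh fell and no other passed the test, with 11 means higher and 13 lower. The list median was -0.0065 on the log2 scale. The light and medium neurofilament subunits had lower values too, by less and not past the threshold. Nefl had 2650, 2530, 2610 and 2480 CPM in cKO cords, against 3010, 3090, 2810 and 2970 CPM in cWT cords (log2 fold change -0.21, SE 0.035, adjusted p = 0.0684 by edgeR). Nefm had 1820, 1770, 1830 and 1720 CPM in cKO cords, against 2060, 2070, 1920 and 1920 CPM in cWT cords (log2 fold change -0.16, SE 0.036, adjusted p = 0.297 by edgeR). Neither pair of groups overlapped. Large projection neurons other than motor neurons also use these subunits. Of 24 voltage-gated potassium channel genes none passed the test, and without overlap 3 were lower (Kcng4, Kcnc4 and Kcnd1) and 2 higher (Kcnd2 and Kcnd3), against 2.01% and 1.51% of all genes. Kcng4, a modifier subunit of Kv2 channels, had 150, 135, 131 and 144 CPM in cKO cords, against 158, 174, 166 and 158 CPM in cWT cords (log2 fold change -0.23, SE 0.050, adjusted p = 0.267 by edgeR), and the fast Kv3 channel gene Kcnc4 differed by -0.13 (SE 0.034, adjusted p = 0.450 by edgeR). The Kv4 channel genes, named after their values were seen, differed by -0.071 (SE 0.06) for Kcnd1, 0.068 (SE 0.037) for Kcnd2 and 0.078 (SE 0.046) for Kcnd3. Vamp1, a vesicle fusion protein of fast synapses and motor terminals, was lower without overlap at -0.14 (SE 0.039, adjusted p = 0.538 by edgeR). The 39 tested synaptic and pan-neuronal genes as a list had a median of -0.00053 and none passed.

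**Figure D3:**
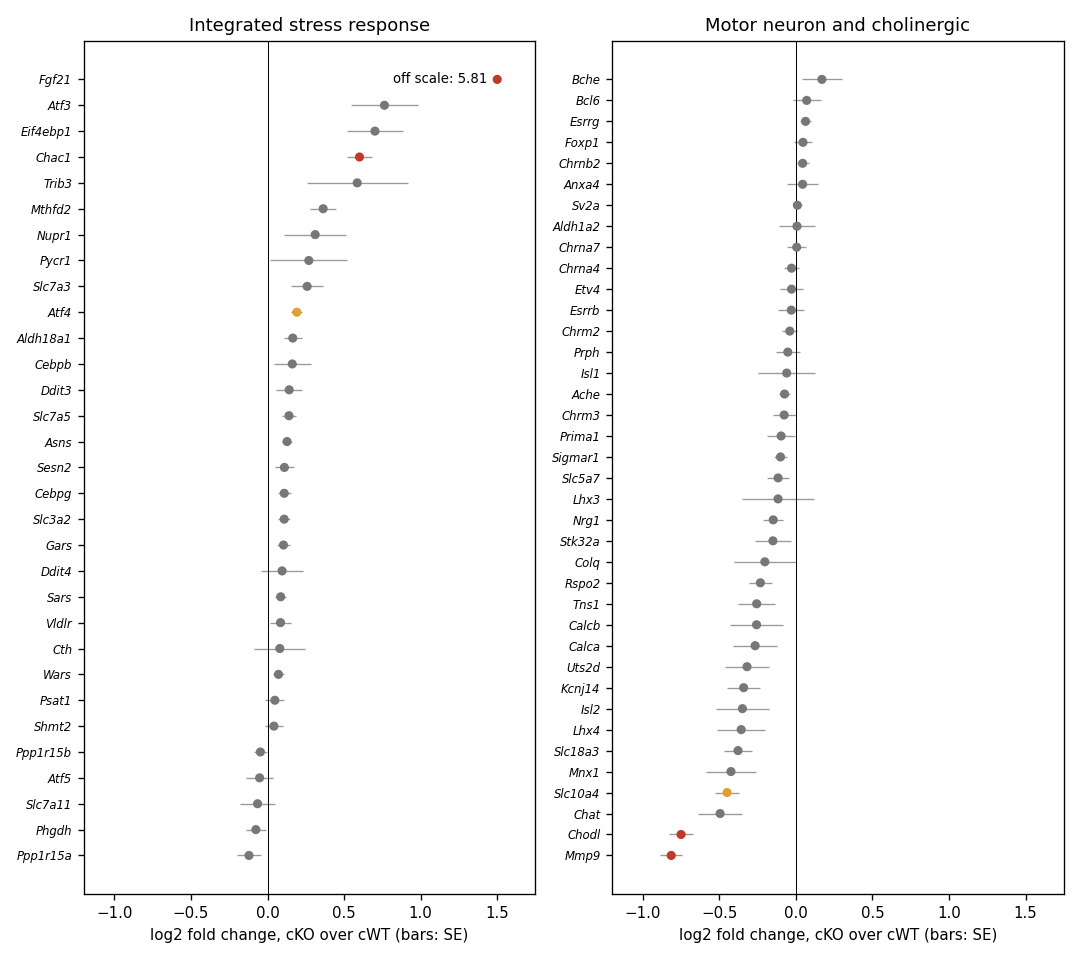
Log2 fold change of cKO over cWT cords (horizontal, bars ± SE) for each tested gene of the integrated stress response list (left) and of the motor neuron and cholinergic lists (right), red for an adjusted p under 0.05 and yellow for the next 20 genes by p. Of the stress genes 26 of 31 lie above 0, with Fgf21 off the scale at 5.81, and Mmp9 at -0.81 and Chodl at -0.75 are the lowest of the right panel.

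The integrated stress response list held 31 tested genes, of which 2 rose (Fgf21 and Chac1), none fell and 29 did not pass the test. A higher mean in cKO cords was seen in 26 of the 31, and 14 reached an unadjusted p under 0.05, all of them higher, against 2.32% of all genes. In 8 the cKO libraries all lay above the cWT libraries, against 1.51% of all genes. The 14 and the 8 include Fgf21 and Chac1. This list too was chosen with earlier results of these data known, so its counts are no test. The median log2 fold change was 0.11, and it stayed between 0.11 and 0.13 whichever library was left out. Apart from Fgf21 the differences were modest, from -0.12 to 0.76 on the log2 scale.

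Atf4, the transcription factor at the centre of the response, had 113, 117, 115 and 121 CPM in cKO cords, against 97.7, 102, 105 and 105 CPM in cWT cords (log2 fold change 0.19, SE 0.037, adjusted p = 0.161 by edgeR). The lowest cKO library exceeded the highest cWT library. Atf3, another transcription factor of the response that also marks injured neurons, had 1.98, 2.37, 1.70 and 1.78 CPM in cKO cords, against 0.861, 1.08, 1.04 and 1.63 CPM in cWT cords (log2 fold change 0.76, SE 0.22, adjusted p = 0.610 by edgeR). Ddit3 and Trib3, which accompany severe stress, were at 0.14 (SE 0.086) and 0.59 (SE 0.33), with overlapping groups. Ppp1r15a, which restores translation, was at -0.12 (SE 0.080). Gdf15, a stress-induced hormone with too few counts to be tested, was counted 9, 5, 5 and 9 times in cKO libraries, and 2, 1, 2 and 4 times in cWT libraries.

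Most target genes in amino acid metabolism had slightly higher means in cKO cords, none past the threshold. Asns, asparagine synthetase, had 118, 115, 117 and 116 CPM in cKO cords, against 105, 107, 104 and 111 CPM in cWT cords (log2 fold change 0.13, SE 0.033, adjusted p = 0.494 by edgeR). Mthfd2, a mitochondrial enzyme of one-carbon metabolism, had 41.7, 38.7, 40.4 and 34.3 CPM in cKO cords, against 30.7, 34.8, 28.7 and 26.3 CPM in cWT cords (log2 fold change 0.36, SE 0.086, adjusted p = 0.367 by edgeR). The Asns groups did not overlap, while those of Mthfd2 met at 34.3 and 34.8 CPM. Eif4ebp1, an inhibitor of cap-dependent translation, had 1.67, 2.27, 2.30 and 2.40 CPM in cKO cords, against 1.11, 1.59, 1.37 and 1.25 CPM in cWT cords. The amino acid transporters Slc7a5 and Slc3a2 were at 0.14 (SE 0.046) and 0.11 (SE 0.039). Of the serine pathway, Psat1 was at 0.048 (SE 0.062) and Phgdh at -0.077 (SE 0.065). Outside the list, and just short of the threshold, Slc7a1, a transporter of arginine and lysine, had 90.4, 91.9, 92.9 and 97.0 CPM in cKO cords, against 72.2, 82.9, 78.2 and 73.8 CPM in cWT cords (log2 fold change 0.28, SE 0.048, adjusted p = 0.0858 by edgeR). Iars, the isoleucyl-tRNA synthetase, had 120, 127, 123 and 130 CPM in cKO cords, against 110, 108, 110 and 106 CPM in cWT cords (log2 fold change 0.20, SE 0.035, adjusted p = 0.0908 by edgeR). The charging enzymes within the list, Sars, Wars and Gars, were at 0.086 (SE 0.037), 0.071 (SE 0.037) and 0.10 (SE 0.043).

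Lists of neighbouring stress pathways held no gene that passed the test. The median log2 fold change was 0.0051 over 25 endoplasmic reticulum chaperones and folding genes, -0.0077 over 21 cytosolic heat shock proteins, and -0.016 over 18 Nrf2 targets and metallothioneins. Of 29 axon injury response genes none passed. Atf3, also a member of the injury list, has its values above, and Stat3, a transcription factor of regenerating neurons, was higher without overlap, with 118, 120, 132 and 124 CPM in cKO cords, against 115, 116, 111 and 114 CPM in cWT cords (log2 fold change 0.12, SE 0.040, adjusted p = 0.758 by edgeR).

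No gene of the autophagy machinery passed the test. Of 16 genes of the conjugation systems 4 reached an unadjusted p under 0.05, all lower in cKO cords and Atg7 among them, against 3.19% of all genes, and 5 means were higher and 11 lower (median log2 fold change -0.024). Map1lc3a, which encodes LC3A, had 140, 122, 124 and 134 CPM in cKO cords, against 143, 151, 141 and 154 CPM in cWT cords (log2 fold change -0.18, SE 0.049, adjusted p = 0.533 by edgeR). Atg12, a substrate of Atg7, had 67.4, 64.5, 67.2 and 66.4 CPM in cKO cords, against 72.1, 69.6, 70.8 and 75.1 CPM in cWT cords (log2 fold change -0.12, SE 0.040, adjusted p = 0.799 by edgeR). Both were lower without overlap, and Map1lc3b was at -0.081 (SE 0.036) with overlap. The conjugation genes Atg3, Atg5, Atg10 and Atg16l1 lay between -0.019 and 0.029, and the 3 GABARAP genes between -0.10 and -0.0025. The 24 genes of initiation and membrane supply ranged from -0.09 to 0.08.

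Of 19 selective autophagy receptors and regulators, Sqstm1 was higher and Ncoa4 lower in mean, neither past the threshold. Sqstm1, whose protein p62 is itself degraded by autophagy, had 589, 602, 591 and 545 CPM in cKO cords, against 504, 488, 499 and 533 CPM in cWT cords (log2 fold change 0.20, SE 0.041, adjusted p = 0.219 by edgeR). Ncoa4, the receptor for ferritin, had 9.79, 10.2, 10.6 and 10.6 CPM in cKO cords, against 10.5, 16.1, 15.1 and 16.4 CPM in cWT cords (log2 fold change -0.49, SE 0.12, adjusted p = 0.446 by edgeR). In the deposited FPKM values the difference was smaller, with 36.5 ± 0.808 FPKM in cKO cords and 39.1 ± 1.87 FPKM in cWT cords (SD, n = 4 each). The Sqstm1 groups did not overlap, and cWT replicate 1 lay with the cKO libraries for Ncoa4 in CPM. Nbr1, a receptor that works with p62, was at 0.065 (SE 0.038). The 39 lysosomal genes had a median of 0.020 with none past the threshold, and Tfeb, the master regulator of lysosomal genes, was at -0.16 (SE 0.084, adjusted p = 0.919 by edgeR).

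No gene of the glial lists passed the test. Of 20 tested disease-associated microglia genes 14 had a higher mean in cKO cords (median log2 fold change 0.10) and in none were the groups apart. Lpl, a lipase that such microglia produce, had 8.28, 5.64, 15.5 and 11.3 CPM in cKO cords, against 4.81, 5.10, 5.87 and 7.76 CPM in cWT cords (log2 fold change 0.79, SE 0.26, adjusted p = 0.738 by edgeR). Itgax, which encodes CD11c, had 1.15, 0.211, 3.45 and 2.02 CPM in cKO cords, against 0.405, 0.566, 0.219 and 1.19 CPM in cWT cords. Both genes were highest in cKO replicate 3 and low in cKO replicate 2. The 14 homeostatic microglia genes had a median of 0.058, with the receptor gene Csf1r at 0.20 (SE 0.061, adjusted p = 0.675 by edgeR). The complement list had 14 of 16 means higher (median 0.11), among them C3, with 61.8, 37.1, 64.9 and 91.3 CPM in cKO cords, against 45.0, 46.5, 39.6 and 50.1 CPM in cWT cords, where cKO replicate 2 was the lowest of all 8 libraries.

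Reactive astrocyte genes had 16 of 19 means higher in cKO cords, with a median log2 fold change of 0.16 and none past the threshold. Lcn2, an acute-phase lipocalin, had 2.55, 1.48, 3.23 and 3.22 CPM in cKO cords, against 1.27, 1.76, 0.987 and 2.01 CPM in cWT cords (log2 fold change 0.80, SE 0.27, adjusted p = 0.766 by edgeR). Gfap, the intermediate filament of astrocytes, had 1560, 1270, 1700 and 1670 CPM in cKO cords, against 1380, 1330, 1350 and 1580 CPM in cWT cords, which overlap. S100a10, an annexin partner, was lower without overlap, with 28.6, 25.9, 30.1 and 28.1 CPM in cKO cords, against 34.2, 35.0, 31.1 and 36.6 CPM in cWT cords (log2 fold change -0.28, SE 0.064, adjusted p = 0.327 by edgeR). The lists of homeostatic astrocytes, oligodendrocytes and myelin, oligodendrocyte precursors, endothelial cells, and pericytes and smooth muscle had medians between -0.048 and 0.046.

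The 8 tested genes of the sensory ganglion list summed to 1390 to 1510 CPM in cKO libraries and 1700 to 1870 CPM in cWT libraries, and without Nefh, which is also a motor neuron filament, to 19.8 to 20.6 CPM in cKO libraries and 18.8 to 21.1 CPM in cWT libraries. A second member of that list, Tusc5, was lower without overlap, with 0.885, 0.685, 0.875 and 0.672 CPM in cKO cords, against 0.962, 1.53, 0.987 and 1.3 CPM in cWT cords (log2 fold change -0.61, SE 0.23, adjusted p = 0.849 by edgeR). Of 15 tested ependymal genes, 1 was higher (Dnahc11, at 0.24, SE 0.13) and 1 lower (Dnahc5, at -0.12, SE 0.088) without overlap. Among all genes tested, 1.51% were higher and 2.01% lower without overlap. The part of these tissues in the results above was not tested. The summed levels of the muscle, meningeal, ependymal and blood lists overlapped between genotypes. The blood sum says little, since hemoglobin genes are at 0 in the counts and 2 of 17 genes were tested. Those 2 differed in direction, with Alas2 at -0.95 (SE 0.414) and Ltf at 1.45 (SE 0.875). Of 15 lumbar Hox genes, 13 were tested and none passed (sums of 660 to 733 CPM in cKO and 662 to 701 CPM in cWT libraries).

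**Figure D4:**
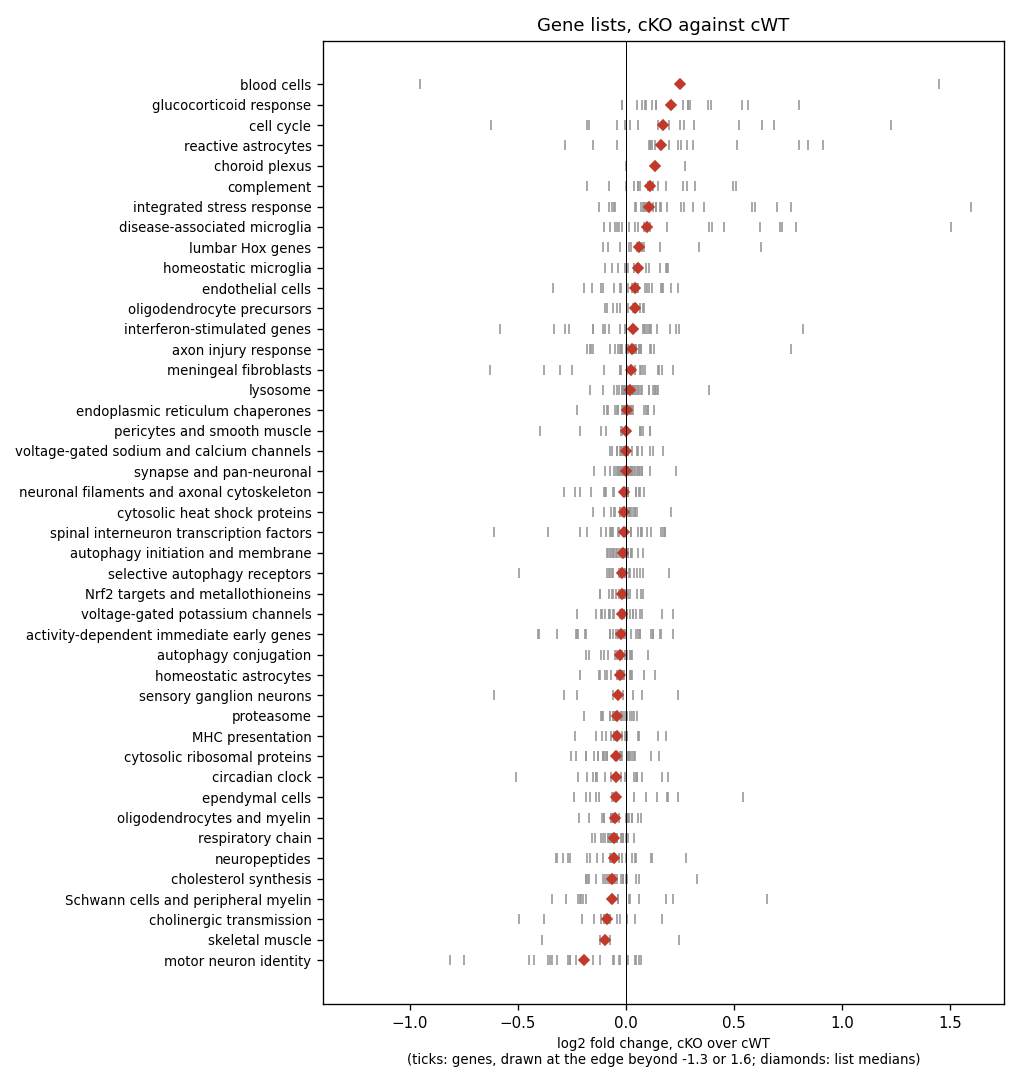
Log2 fold change of cKO over cWT cords (horizontal) for 44 gene lists (rows), with a grey tick per tested gene and a red diamond at the median of each list. The motor neuron identity list lies lowest at -0.19, and the integrated stress response list has its median at 0.11 with Fgf21 drawn at the right edge.

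The 20 genes next in order of p, with adjusted p from 0.0515 to 0.22 (edgeR), did not pass the threshold. In 8 the level was higher in cKO cords and in 12 lower, without overlap in all 20. They were ranked in these same libraries, so this separation is no further support. Besides those above, the lower ones included Tesc, a calcium-binding regulator, with 22.2, 21.7, 20.7 and 21.5 CPM in cKO cords, against 27.5, 28.3, 27.4 and 26.0 CPM in cWT cords (log2 fold change -0.34, SE 0.054, adjusted p = 0.0515 by edgeR), the nearest gene outside the threshold, as Pdgfd at 0.0210 was the last inside it. Glrx2, a mitochondrial glutaredoxin, had 31.2, 27.8, 31.6 and 38.1 CPM in cKO cords, against 49.1, 48.1, 42.4 and 50.3 CPM in cWT cords (log2 fold change -0.56, SE 0.088, adjusted p = 0.0515 by edgeR). Dffa, the inhibitor of the apoptotic DNase, had 134, 134, 129 and 132 CPM in cKO cords, against 162, 178, 147 and 167 CPM in cWT cords. The rest of the lower ones were Layn, Adam19, Polr3g, Hebp2, Gna14, Cd24a and 2610002J02Rik, at -0.61 to -0.30. The higher ones included Plat, tissue plasminogen activator, with 63.7, 56.9, 68.6 and 55.4 CPM in cKO cords, against 44.8, 47.0, 42.3 and 52.0 CPM in cWT cords (log2 fold change 0.39, SE 0.079, adjusted p = 0.193 by edgeR). Frem3, Ppil1 and Igsf10 were higher by 0.79 (SE 0.15), 0.57 (SE 0.11) and 0.35 (SE 0.070).

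The transgenic cords gave the same genotype contrast in other animals, on a very different background. There 58.2% of 15426 genes passed the test, 29.1% higher and 29.1% lower in cKO_SOD1 cords, and the interaction between genotype and transgene was called for 45.0% of genes. Of the 9 genes that changed without the transgene, 5 passed with the same sign (Fgf21, Chodl, Mrvi1, Lgals1 and Pdgfd), 3 with the opposite sign (Mmp9, Mest and Nefh), and Chac1 did not pass. With a background that high, these counts are not a result about the 9 genes.

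Fgf21 was again higher, with 3.28, 2.67, 2.61 and 3.48 CPM in cKO_SOD1 cords, against 0.800, 0.335, 0.340 and 0.530 CPM in cWT_SOD1 cords (log2 fold change 2.59, SE 0.25, adjusted p = 2.34e-07 by edgeR). The difference between genotypes was smaller than without the transgene (interaction -3.22, SE 0.51, adjusted p = 8.89e-05 by edgeR), with a lower level in cKO_SOD1 than in cKO cords and a higher one in cWT_SOD1 than in cWT cords. Chodl had 4.04, 3.82, 2.52 and 3.68 CPM in cKO_SOD1 cords, against 4.49, 4.58, 5.83 and 7.63 CPM in cWT_SOD1 cords, a small part of its level without the transgene. Its log2 fold change of -0.68 (SE 0.18, adjusted p = 0.00302 by edgeR) stood beside -0.75 without the transgene (interaction 0.07, SE 0.21, adjusted p = 0.822 by edgeR). Among the 9 genes Chodl alone had no called interaction. The interaction contains the same difference between cKO and cWT cords by which these genes were named, so it is not an independent test of that difference.

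Mmp9 and Nefh changed sign. Mmp9 had 6.91, 5.87, 5.54 and 6.91 CPM in cKO_SOD1 cords, against 4.31, 4.14, 3.63 and 4.51 CPM in cWT_SOD1 cords (log2 fold change 0.61, SE 0.10, adjusted p = 6.30e-05 by edgeR). Nefh had 802, 804, 714 and 840 CPM in cKO_SOD1 cords, against 536, 306, 302 and 522 CPM in cWT_SOD1 cords (log2 fold change 0.92, SE 0.15, adjusted p = 3.82e-05 by edgeR). Both genes were thus at their lowest in cWT_SOD1 cords and at their highest in cWT cords. Lgals1 had 29.6, 30.9, 28.9 and 35.8 CPM in cKO_SOD1 cords, close to its level in cKO cords, against 79.4, 102, 108 and 90.3 CPM in cWT_SOD1 cords. Chac1 had 9.31, 10.5, 8.94 and 11.1 CPM in cKO_SOD1 cords, against 8.24, 11.5, 11.9 and 11.2 CPM in cWT_SOD1 cords (log2 fold change -0.10, SE 0.11, adjusted p = 0.433 by edgeR). Atf4 likewise differed by 0.02 (SE 0.04, adjusted p = 0.717 by edgeR) in the transgenic pair.

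The medians of 30 of 44 lists stood on opposite sides of 0 in the 2 pairs, and values of 3 lists follow, to be read against the 29.1% of all genes higher and 29.1% lower in cKO_SOD1 cords. The integrated stress response list had a median log2 fold change of -0.104 in the transgenic pair, with 5 genes higher and 14 lower in cKO_SOD1 cords, beside 0.11 without the transgene. Asns was higher in both pairs, at 0.54 (SE 0.07, adjusted p = 2.14e-06 by edgeR) with the transgene, whereas Atf3 was at -2.42 (SE 0.14, adjusted p = 2.19e-09 by edgeR). The motor neuron identity list had a median of 0.061, with 8 higher and 6 lower of 24, shares near those of all genes. The cholinergic list had a median of 0.544, with 10 higher and none lower. The difference of the list medians between the pairs was not tested.

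**Figure D5:**
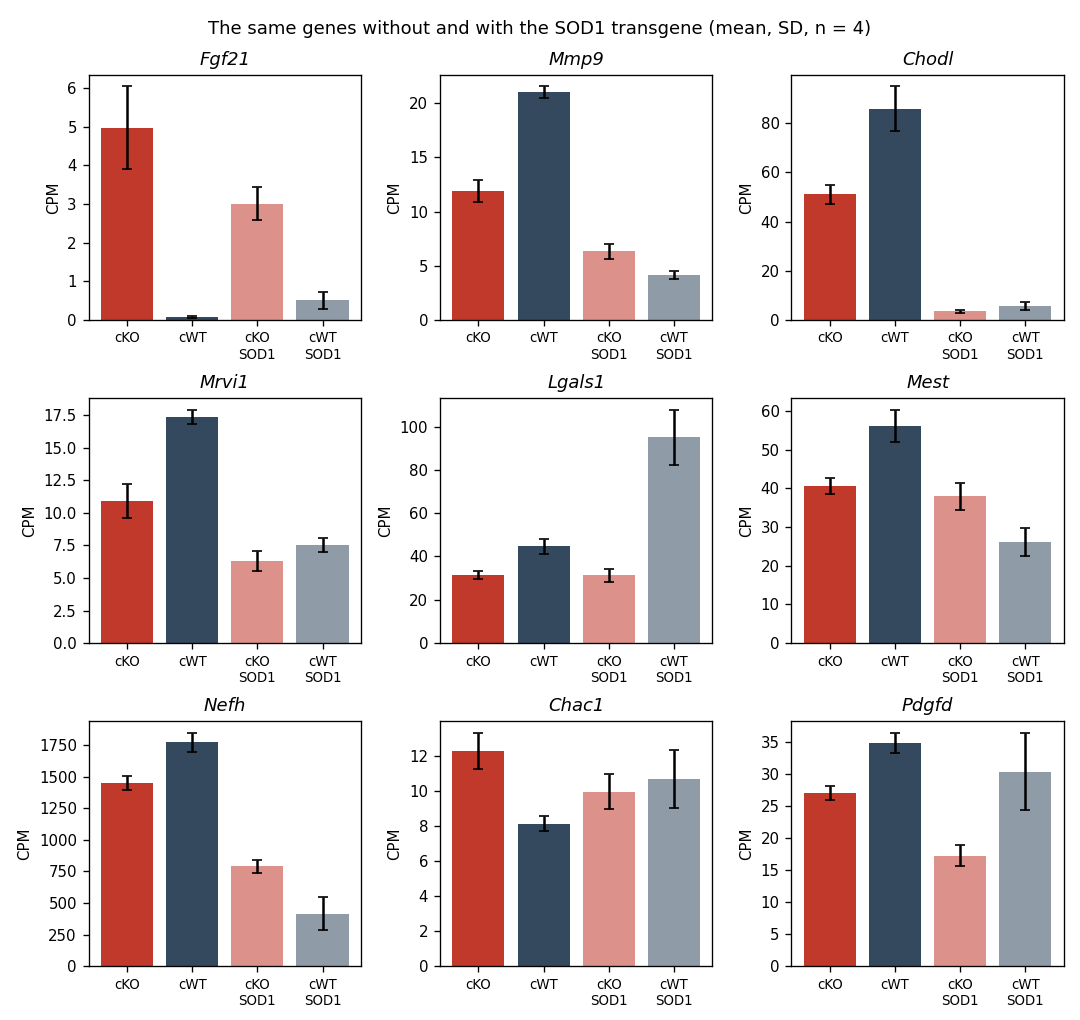
Mean level in CPM (vertical, linear from 0, bars of 1 SD, n = 4 mice) of the 9 genes in cKO and cWT cords without the transgene and in cKO_SOD1 and cWT_SOD1 cords with it. Chodl is at 3.51 in cKO_SOD1 and 5.63 in cWT_SOD1 cords, and Fgf21 is higher in the cKO group of both pairs.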

How the data were processed

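Trizol and column-purified RNA was poly-A enriched and prepared with an Illumina TruSeq kit, per the labels' protocols. The submitters' processing notes list bcl2fastq 1.8.4, TopHat2 2.0.4, Cufflinks 2.0.2 and mm9, without a role for each. The authors deposited raw counts per gene symbol, whole numbers with 1 column per library. The counting tool and its use of strand are not named there, so reads of overlapping or antisense genes can have been assigned to either. They also deposited FPKM values, which the authors scaled for length and depth. Loci are those of the deposited FPKM tables, in mm9. Promoter windows are from RefSeq (GRCm38.p6), another build, matched by symbol, and no coordinate was converted.

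Counts of the 4 cKO and 4 cWT libraries were tested with edgeR 4.0.16 (R 4.3.3), quasi-likelihood F-test, TMM scaling, filterByExpr defaults and a coefficient per group. Benjamini-Hochberg adjustment ran over all genes tested, with a call at an adjusted p under 0.05. CPM values use TMM library sizes, over the 8 libraries without the transgene, and over all 16 where cKO_SOD1 and cWT_SOD1 values are given. The interaction and the transgenic pair were fitted on all 16 libraries. No pair of libraries within the cKO group or within the cWT group was alike enough to be a duplicate, and other pairs were not compared. The counting interval covers counting error only. The procedure was tested on simulated counts.

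The members and the 45 gene lists (971 entries, all matched, 16 through an older symbol) were chosen with earlier results of these data known. Lists are described by counts and medians, with no set test. Named were Atg7, every called gene, the 20 genes with the next smallest p as not passing, the called members and up to 3 others with the smallest p of each list described, and members of the motor neuron, cholinergic and conjugation lists by value. Further members of the stress response list were chosen after their values were seen. Xist and Y-linked genes served only to read sex. Alternatives were RLE and upper-quartile scaling, other filters, DESeq2 1.42.0, limma-voom with library weights (limma 3.58.1), limma on log2 FPKM with pseudocounts of 0.1 and 1, all 16 libraries, a replicate block, a sex term, each sex alone and leaving out each library.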

Additional observations from a re-analysis of the deposited data

Results flagged for a closer look

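Among the genes given with values, 11 had a library that stood apart from the other 3 of its group by Dixon's criterion. Chance alone meets it in about 1 group in 20, and many groups were examined, so the count is no result. Col19a1, Stab2 and Kcnd3 were named after their values were seen, so that rate does not apply to them. Lgals1 had 28.6 CPM in cKO replicate 2, against 31.6 to 32.1 CPM in the other cKO libraries, and remained below all cWT libraries in each. 2610002J02Rik had 12.8 CPM in the same library, against 13.6 to 13.8 CPM in the others. Itgam, an integrin of microglia, had 41.8 CPM in cKO replicate 4, against 26.8 to 28.8 CPM in the other cKO libraries. Tmem41b, a protein of autophagosome formation, had 35.2 CPM in cWT replicate 2, against 38.5 to 39.1 CPM in the other cWT libraries. That library was high in Kcnj14 with 29.7 CPM (23.6 to 24.1 in the others), in Calca with 37.2 CPM (22.6 to 24.6) and in Trib3 with 0.962 CPM (0.354 to 0.439). In cKO replicate 3, Sv2a was low at 574 CPM (584 to 585 in the other cKO libraries) and Kcnd3 high at 63 CPM (57.1 to 57.8). In cWT replicate 4, Col19a1 was high at 147 CPM (14.2 to 20.8 in the other cWT libraries) and Stab2 at 31.5 CPM (1.22 to 2.21).

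For 22 of the 30 named genes (Atg7, the 9 called and the next 20), the cKO effect with the transgene differed from that without it in edgeR's interaction test, where 45.0% of all genes are called. The values are log2 differences of the cKO effect, with the transgene minus without. Of the 9 called genes, the difference was -3.22 for Fgf21, -1.1 for Lgals1, -0.7 for Chac1 and -0.45 for Pdgfd, and it was 1.42 for Mmp9, 1.21 for Nefh, 1.0 for Mest and 0.42 for Mrvi1. Among genes lower in cKO cords just short of the threshold, it was 1.25 for Tesc, 1.22 for Nefl, 0.93 for Dffa, 0.7 for Adam19, 0.63 for Slc10a4, 0.6 for Glrx2 and 0.38 for Polr3g, and it was -0.75 for Layn and -0.69 for Cd24a. Among those higher in cKO cords, it was -2.14 for Plat, -1.19 for Igsf10, -0.31 for Sqstm1, -0.17 for Atf4 and 1.34 for Frem3. The genes Nefh, Nefl and Mmp9 were higher in cKO_SOD1 than in cWT_SOD1 cords and lower in cKO than in cWT cords. Chodl, the other fast motor neuron marker, was lower in both pairs (-0.75 without and -0.68 with the transgene), with no called interaction. Lgals1, Layn and Cd24a were lower in both and further apart with the transgene.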

How the results depend on the processing

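Against 9 called genes, DESeq2 called 34, of which 9 were the genes called by edgeR and 15 were among the next 20. With all 16 libraries in the fit 4 genes were called, with females alone 4 (2 of them among the 9, and 50% higher against 22.2% in both sexes) and with males alone 22 (7 among the 9), each sex with 2 libraries per group. Leaving out 1 library gave 3 to 12 calls, and the highest was without cWT replicate 3. Under RLE scaling, upper-quartile scaling, other filters, limma-voom, FPKM and a sex term, 7 to 13 genes were called. Fgf21 and Chodl were called under all 21 alternatives, Mmp9 under 20 (females alone excepted), Mrvi1 and Lgals1 under 15, Nefh under 14, Mest under 13, Chac1 under 11 and Pdgfd under 10. None of these 9 changed sign, which follows largely from their groups not overlapping. Of the genes given with values that did not pass, 11 changed sign under some alternative; the cause was not tested. In males alone Itgam was at -0.026, Prph at 0.015, Atg5 at 0.032 and Atg10 at 0.12. In females alone Isl1 was at 0.077, Esrrb at 0.0079 and Atg3 at -0.051, and under limma-voom Prph was at 0.004. Col19a1 was at 0.15 and 0.094 on FPKM with pseudocounts of 0.1 and 1. Leaving out 1 library gave -0.17 to 0.14 for Isl1, -0.12 to 0.0066 for Prph, -0.085 to 0.019 for Esrrb, -0.0004 to 0.019 for Sv2a, -0.0058 to 0.077 for Atg3, -0.053 to 0.022 for Atg5, -0.11 to 0.057 for Atg10, -0.0018 to 0.045 for Atg16l1, -0.0078 to 0.1 for Psat1 and -1.76 to 0.066 for Col19a1 (the last without cWT replicate 4). Named genes with a called interaction numbered 22, and 22 to 24 when a library was left out. No label says what a replicate number shares. Same-numbered cKO and cWT libraries correlated at -0.214, 0.318, -0.304 and 0.268. The values were positive where the sexes matched and negative where they differed, so they cannot show whether the numbers pair the animals. A fit with the replicate number as a block called 6 genes, 5 of them among the 9. At this depth Fgf21 in cWT cords rests on 6 counts, so its fold is imprecise. The counting interval leaves out variation between animals.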

Other observations

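Of 18 circadian clock genes none passed the test and 4 were lower in cKO cords at an unadjusted p under 0.05, against 3.19% of all genes. Dbp, an output gene of the clock, had 21.3, 20.7, 17.2 and 35.1 CPM in cKO cords, against 30.1, 33.2, 41.7 and 29.6 CPM in cWT cords (log2 fold change -0.51, SE 0.19, adjusted p = 0.806 by edgeR). The clock repressor gene Bhlhe41 had 43.3, 43.5, 41.1 and 45.1 CPM in cKO cords, against 49.6, 48.9, 51.1 and 46.1 CPM in cWT cords, and was lower without overlap. Glucocorticoid response genes had 17 of 19 means higher in cKO cords (median log2 fold change 0.21) with none past the threshold, and their sums overlapped, at 1420 to 2170 CPM in cKO and 1430 to 2050 CPM in cWT libraries. Of 28 nuclear respiratory chain genes 25 had a lower mean in cKO cords, with a median of -0.053 and none past the threshold.

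The largest fitted folds outside the 9 called genes belonged to genes with 1 or a few deviating animals, and are named here after their values were seen. Of 21 genes beyond 2-fold that were not called, 2 had groups that did not overlap, against 3.51% of all genes tested. Col19a1, a collagen gene, had 14.3, 20.1, 17.1 and 20.5 CPM in cKO cords, against 16.7, 20.8, 14.2 and 147 CPM in cWT cords. Stab2, a scavenger receptor of sinusoidal endothelium, had 0.781, 1.05, 1.48 and 0.960 CPM in cKO cords, against 1.22, 2.21, 2.03 and 31.5 CPM in cWT cords. Both were high in cWT replicate 4 alone. Rnaset2b, which has a near-identical copy that could share its reads, had 1.3, 1, 0.711 and 1.25 CPM in cKO cords, against 4.96, 0.679, 6.42 and 5.92 CPM in cWT cords, with cWT replicate 2 at the cKO level.

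Around Atg7, 139 genes within 10 Mb on either side were tested, none was called, and 5.76% had an unadjusted p under 0.05, against 5.51% of all genes. Their median log2 fold change was 0.0078. Of the 29 genes that were called or next in order of p, 1 lay on chromosome 6 (Mest).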
